A study of Mus musculus with 12 samples.

Results

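Mast cells are tissue-resident immune cells that store proteases in granules and release them when antigen crosslinks IgE on their surface. Their granules hold tryptases, which cut after basic residues, chymases, which cut after aromatic residues, and a carboxypeptidase that trims the ends of peptides. In the mouse gut, mucosal mast cells within the epithelium and lamina propria carry Mcpt1 and Mcpt2, and connective tissue mast cells of the submucosa and muscle carry Mcpt4, Cma1, Tpsb2 and Cpa3. The genes described here were 10 of the 54532 genes in each expression table: the tryptases Tpsg1, Tpsab1 and Tpsb2, the chymases Mcpt1, Mcpt2, Mcpt4 and Cma1, the carboxypeptidase Cpa3, the stem cell factor receptor Kit and the IgE receptor beta chain Ms4a2. The list was chosen by the value of Tpsg1 in colon tumors, where its difference between genotypes ranked 9 of 16743 tested genes by p, and the question was whether other mast cell genes follow it. The values of the list in tumors are therefore given as a description, and nothing is concluded from a test of them.

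The study deleted ieCtnnb1, an intestinal enhancer of the beta-catenin gene Ctnnb1, from the germline of C57BL/6 mice (Ctnnb1Δi.enh, homozygous), and profiled RNA of untreated adult mice in 4 groups of 3 libraries. The crypt groups were small intestinal crypts of wild-type mice and of Ctnnb1Δi.enh mice, and the tumor groups were colon tumors of ApcMin/+ mice and of Ctnnb1Δi.enh;ApcMin/+ mice. The ApcMin/+ allele, a nonsense mutation of the Wnt antagonist Apc that causes intestinal adenomas, is carried by both tumor groups. The deletion was present in every cell of the animal, including blood cells, so that epithelial and immune effects of the allele cannot be told apart. Crypts were released from the tissue with EDTA and shaking. Values are FPKM, fragments per kilobase of gene scaled for library depth, and 14457896 to 16156712 fragments lay on genes in each library. Crypt and tumor tables were normalized separately, so levels in the 2 tissues are set side by side without a test.

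The deleted enhancer's target was read first. In crypts Ctnnb1 was at 121, 134 and 123 FPKM in the wild-type libraries and at 102, 104 and 105 FPKM in the Ctnnb1Δi.enh libraries. In tumors it was at 299, 363 and 358 FPKM in ApcMin/+ and at 279, 248 and 250 FPKM in Ctnnb1Δi.enh;ApcMin/+. The deleted group was the lower in both tissues, with no overlap between groups. The epithelial marker Epcam lay between 659 and 797 FPKM in crypts and between 696 and 896 FPKM in tumors. Krt20 lay between 339 and 713 FPKM in crypts but between 47.8 and 125 FPKM in tumors. Vil1 lay between 358 and 718 FPKM in crypts but between 73.7 and 148 FPKM in tumors. The ranges of Krt8 overlapped, and other epithelial markers of the list ran both ways. The smooth muscle actin gene Acta2 was at 0.0345 to 0.235 FPKM in crypts and at 78.2 to 115 FPKM in tumors. Crypts were not free of stromal transcripts, as the fibroblast marker Dcn was at 1.13 to 3.98 FPKM there.

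Some libraries stood apart from the others of their group. Wild-type crypt replicates 1 and 2 held stomach transcripts, with the gastric mucus peptide Tff2 at 122 and 53.6 FPKM against 1.09 FPKM in replicate 3 and 0.105 to 3.37 FPKM in the Ctnnb1Δi.enh crypts. Gkn2, a secreted protein of the stomach surface, was at 12.3 and 15.1 FPKM in these 2 libraries and at 0 in the other 4. Summed over the 8 stomach markers, the wild-type crypt libraries held 161, 91.7 and 4.25 FPKM and the Ctnnb1Δi.enh libraries between 2.07 and 6.10 FPKM. Replicate 3 of each tumor genotype expressed Xist, the RNA of the inactive X chromosome, at 114 and 61.4 FPKM, while Xist was at most 0.0623 FPKM in the other tumor libraries.

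The tryptase genes lie together on chromosome 17 and the chymase genes on chromosome 14 (mm10). Tpsab1 spans chr17:25343245-25345562, Tpsb2 chr17:25366550-25368094 and Tpsg1 chr17:25369273-25374442, while Cma1 spans chr14:55941451-55944675, Mcpt1 chr14:56017971-56020384, Mcpt2 chr14:56042041-56044642 and Mcpt4 chr14:56059629-56062313. Tpsg1 is on the plus strand and its last 158 bases, chr17:25374285-25374442, are exon of both Tpsg1 and Cacna1h, a calcium channel gene on the opposite strand. The sources used here do not state whether counting used strand, and without strand the fragments of this stretch cannot be assigned to either gene. Cacna1h was at 10.4, 11.5 and 7.99 FPKM in ApcMin/+ tumors and at 6.12, 5.56 and 4.55 FPKM in Ctnnb1Δi.enh;ApcMin/+ tumors, so its groups did not overlap and ran opposite to those of Tpsg1. Of the other members only Cpa3 overlapped another gene, the microRNA gene Mir7007, and no exon was shared. Of all windows of 75 bases in a member's transcripts, the largest share also found in another gene was 2.51%, for Mcpt4, and 7 members, with Mcpt1 and Mcpt2 among them, had no such window.

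RefSeq promoter entries (GRCm38.p6) were found for 7 of the 10 members, 9 entries in all; Tpsab1, Tpsb2 and Mcpt2 had none. The 150 bases before the start are shown for Tpsg1, for Mcpt1 and Mcpt4, whose levels moved together across tumor libraries, and for Cpa3. Capitals mark GATAAG or, on the other strand, CTTATC, a form of the GATA motif. These letters were chosen after the sequences were seen.
Tpsg1 (chr17:25369123-25369272, strand plus): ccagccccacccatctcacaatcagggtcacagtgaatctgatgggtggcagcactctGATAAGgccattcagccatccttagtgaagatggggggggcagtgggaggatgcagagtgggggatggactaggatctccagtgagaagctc
Mcpt1 (chr14:56017814-56017963, strand plus): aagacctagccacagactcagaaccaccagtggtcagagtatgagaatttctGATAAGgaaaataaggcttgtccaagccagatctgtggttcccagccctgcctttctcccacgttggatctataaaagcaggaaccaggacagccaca
Mcpt4 (chr14:56062311-56062460, strand minus): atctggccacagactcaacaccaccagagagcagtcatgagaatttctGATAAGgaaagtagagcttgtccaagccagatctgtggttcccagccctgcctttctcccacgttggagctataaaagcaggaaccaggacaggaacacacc
Cpa3 (chr3:20242182-20242331, strand minus): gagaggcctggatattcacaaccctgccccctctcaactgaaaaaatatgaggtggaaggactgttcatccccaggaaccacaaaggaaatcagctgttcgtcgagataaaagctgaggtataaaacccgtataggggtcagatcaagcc
GATAAG stood 92 bases before the start in Tpsg1, 98 in Mcpt1 and 102 in Mcpt4, and its reverse complement stood 38 bases before the start in Ms4a2. Cpa3, Kit, Cma1 and the second Tpsg1 entry had no match to these letters in this window. Other forms of the GATA motif were not searched, so a window without GATAAG may still hold another form. Of all 32851 promoters, 3.75% held GATAAG on either strand. TATAAA or TTTATA was found in Mcpt1, Mcpt4 and Cpa3, 28, 32 and 31 bases before the start, and in 7.57% of all promoters. CACGTG, a form of the E-box, was in none of the 9 entries and in 4.30% of all promoters. A match describes letters and does not show binding.

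In tumors Tpsg1, the transmembrane tryptase, was the member that had chosen the list. It was at 5.03, 4.32 and 3.90 FPKM in the ApcMin/+ libraries, from 81 to 113 fragments each, and at 11.2, 11.0 and 8.40 FPKM in the Ctnnb1Δi.enh;ApcMin/+ libraries, from 182 to 250 fragments each. All 3 deleted libraries lay above all 3 controls. The difference was 1.12 on the log2(FPKM + 0.5) scale (SE 0.15, n = 3 per group), with group means of 4.41 ± 0.569 and 10.2 ± 1.55 FPKM (SD, n = 3).

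The secreted tryptases did not follow this order. Tpsb2, a tryptase of connective tissue mast cells, was at 11.1, 10.3 and 6.56 FPKM in ApcMin/+ tumors and at 8.57, 15.7 and 4.57 FPKM in Ctnnb1Δi.enh;ApcMin/+ tumors. Tpsab1, the neighbouring tryptase gene, was at 0.649, 0.550 and 0.894 FPKM in ApcMin/+ and at 0.564, 1.13 and 0.184 FPKM in the deleted group. Both had their highest and their lowest library within the deleted group, replicates 2 and 3, and the groups overlapped.

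Of the chymases, 3 varied widely between libraries. Mcpt1, a chymase of mucosal mast cells, was the most abundant member by its mean over the tumor libraries. It was at 48.1, 15.7 and 16.2 FPKM in ApcMin/+ tumors and at 14.5, 58.7 and 6.20 FPKM in Ctnnb1Δi.enh;ApcMin/+ tumors. In deleted replicate 3 it lay below Tpsg1, at 8.40 FPKM. Mcpt2 was at 27.2, 7.43 and 9.52 FPKM in ApcMin/+ and at 7.09, 31.6 and 3.51 FPKM in the deleted group. ApcMin/+ replicate 1 and deleted replicate 2 were high and deleted replicate 3 was lowest for both genes, and the ratio of Mcpt1 to Mcpt2 stayed between 1.70 and 2.12 in the 6 libraries. Mcpt4, a chymase of connective tissue mast cells, was at 3.57, 0.820 and 1.51 FPKM in ApcMin/+ and at 1.40, 6.75 and 0.926 FPKM in the deleted group. Cma1, also of connective tissue mast cells, was at 4.48, 2.56 and 5.40 FPKM and at 5.30, 7.61 and 5.82 FPKM, with a narrower range than the other 3 chymases. The deleted group of Cma1 overlapped the controls only through 5.30 FPKM in its replicate 1, which lay below 5.40 FPKM in ApcMin/+ replicate 3.

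**Figure D1:**
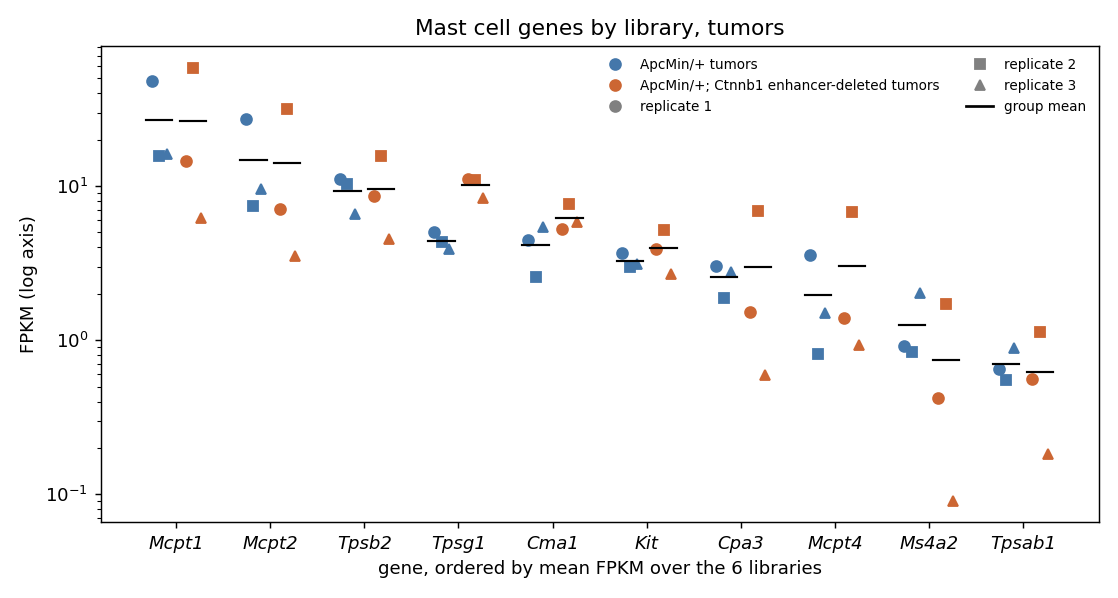
FPKM of each gene in each tumor library on a log axis, with circles, squares and triangles for replicates 1, 2 and 3, color for genotype and black lines for group means. Only Tpsg1 had its groups apart, at 3.90 to 5.03 against 8.40 to 11.2 FPKM, whereas Mcpt1 ran from 6.20 to 58.7 FPKM within the deleted group alone.

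Cpa3, the carboxypeptidase of mast cell granules, was at 3.05, 1.88 and 2.78 FPKM in ApcMin/+ tumors and at 1.52, 6.86 and 0.592 FPKM in Ctnnb1Δi.enh;ApcMin/+ tumors. Ms4a2, the beta chain of the IgE receptor, was at 0.922, 0.840 and 2.02 FPKM in ApcMin/+ and at 0.420, 1.73 and 0.0912 FPKM in the deleted group, with 4 fragments in the last library. Kit, the receptor through which stem cell factor keeps mast cells alive, was at 3.67, 2.97 and 3.11 FPKM in ApcMin/+ and at 3.93, 5.22 and 2.68 FPKM in the deleted group. Each was highest or second highest in deleted replicate 2 and lowest in deleted replicate 3. Kit is also made by interstitial cells of Cajal and by secretory cells of the crypt base. In bulk RNA fewer cells of a type and less RNA per cell cannot be told apart.

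Of the 10 members, all of which passed the filter of a mean of 0.5 FPKM in tumors, 1 had groups that did not overlap with the deleted group higher, beside 11.4% of 16743 tested genes, and none had the deleted group lower without overlap, beside 10.6%. That 1 member was Tpsg1, which chose the list, and nothing is read from the count. The same holds at an unadjusted limma p under 0.05, which 14.5% of tested genes reached. The log2 differences of the other 9 ran from -0.66 (SE 0.51) for Ms4a2 to 0.58 (SE 0.26) for Cma1, with 3 above 0 and 6 below. The direction depended on the scale for 2 of these 6, as the mean FPKM of the deleted group was the higher for Cpa3 (2.99 against 2.57 FPKM) and for Tpsb2 (9.61 against 9.32 FPKM). The lowest and the highest of the log2 differences changed in size, but not in sign, when 1 library was left out. Ms4a2 stood at -0.37 without ApcMin/+ replicate 3, at -1.19 without deleted replicate 2 and at -0.24 without deleted replicate 3. By voom it stood at -1.43, and with a pseudocount of 0.1 at -1.16. Cma1 stood at 0.30 without ApcMin/+ replicate 2 and at 0.78 without ApcMin/+ replicate 3. Kit, at 0.21, stood just above 0 without deleted replicate 2 and at 0.43 without deleted replicate 3. Leaving out deleted replicate 2 moved Mcpt1 from -0.38 and Mcpt2 from -0.39, both to -1.24, and Cpa3 from -0.26 to -1.03. That setting also moved Tpsb2 from -0.08 to -0.50 and Tpsab1 from -0.17 to -0.48, and turned Mcpt4 from 0.29 to -0.42. Leaving out deleted replicate 3 turned Mcpt1 to 0.33, Cpa3 to 0.35, Tpsb2 from -0.08 to 0.34, Mcpt2 from -0.39 to 0.26 and Tpsab1 from -0.17 to 0.15. Control libraries turned signs as well: without ApcMin/+ replicate 1, Mcpt1 stood at 0.14, Mcpt2 at 0.15 and Tpsb2 at 0.05, and without ApcMin/+ replicate 2, Mcpt4 stood at -0.08 and Tpsb2 just above 0. Tpsg1 lay between 1.04 and 1.24 whichever library was left out.

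Summed over the 10 genes, ApcMin/+ tumors held 108, 47.4 and 51.9 FPKM and Ctnnb1Δi.enh;ApcMin/+ tumors 54.4, 146 and 33.0 FPKM. The highest and the lowest sum were both in the deleted group. Tpsg1 made up 4.66%, 9.11% and 7.51% of the sum in ApcMin/+ and 20.5%, 7.52% and 25.5% in the deleted group. Ptprc, the pan-leukocyte phosphatase, was at 2.81, 2.02 and 2.29 FPKM and at 2.42, 3.05 and 1.30 FPKM, with the same libraries at the top and the bottom. Macrophage markers summed to 234, 159 and 199 FPKM and to 262, 332 and 220 FPKM. Fibroblast markers summed to 345, 216 and 208 FPKM and to 346, 452 and 358 FPKM. Within each genotype both were highest in ApcMin/+ replicate 1 and deleted replicate 2, as the mast cell sums were. The part of these cell types in the sums was not tested.

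As a description, likeness was measured by Pearson r of log2(FPKM + 0.5) over the 6 tumor libraries, which share 2 genotypes, so that any gene apart between genotypes scores high with Tpsg1. The 5 genes most like Tpsg1 were Dpp9, Jph2, Pacsin2, Naa50 and Slc6a8, with r from 0.985 to 0.998. Among the members, Cma1 stood at 0.65, Kit at 0.57, Mcpt4 at 0.33, Tpsb2 at 0.15, Mcpt1 at 0.04, Mcpt2 at 0.02, Cpa3 at 0.01, Tpsab1 at -0.06 and Ms4a2 at -0.37. With Cpa3 as the reference, Tpsab1 stood at 0.95, Mcpt1 and Mcpt2 at 0.92, Ms4a2 at 0.87, Mcpt4 at 0.86, Tpsb2 at 0.85 and Kit at 0.81, against 0.30 for Cma1. Among 16742 ranked genes, the places of these members ran from 58 for Tpsab1 to 640 for Kit, with Cma1 at 5344. Many genes outside the list thus scored as high. The 5 tested genes most like Cpa3 were Nol4l, Plbd1, Reep3, Sec16a and Dopey2, with r from 0.989 to 0.993.

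Mucus genes were higher in the same tumor group as Tpsg1. Of 7 goblet and deep crypt secretory markers, all tested, 6 had the deleted group higher without overlap, beside 11.4% of all tested genes, and their median log2 difference was 1.03, beside 0.01 over all tested genes. Summed, they held 1409, 1383 and 1530 FPKM in ApcMin/+ tumors and 2647, 3280 and 2644 FPKM in Ctnnb1Δi.enh;ApcMin/+ tumors, the most abundant being Spink4. Muc2, the gel-forming mucin, was at 151, 123 and 114 FPKM and at 259, 419 and 295 FPKM. Agr2, a disulfide isomerase needed for mucin folding, was at 109, 98.8 and 111 FPKM and at 205, 273 and 182 FPKM. The r with Tpsg1 ran from 0.63 for Reg4 to 0.96 for Agr2 over the 7 markers, and the genotype difference that chose Tpsg1 enters each of them. Within the deleted group Spink4 had the same order of libraries as Tpsg1, highest in replicate 1 and lowest in replicate 3, while the other 6 markers were highest in replicate 2. No marker of this list was at 0. Of 7 epithelial markers 6 were higher without overlap, with sums of 3254, 3140 and 2853 FPKM in ApcMin/+ and of 3730, 3710 and 3798 FPKM in the deleted group. Of 6 fibroblast markers, led by Col1a1, 3 were higher without overlap. All 6 had a log2 difference above 0, with a median of 0.53. Of 8 macrophage markers, led by C1qa, 1 was higher without overlap, a share near the 11.4% of all tested genes, and the other 7 overlapped. All 8 macrophage markers had a log2 difference above 0, with a median of 0.34 beside 0.01 over all tested genes. Of 5 endothelial markers, led by Plvap, 2 were higher without overlap. Tpsg1 transcripts are known from intestinal goblet cells as well as mast cells, and the part of these cell types in its level was not tested.

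**Figure D2:**
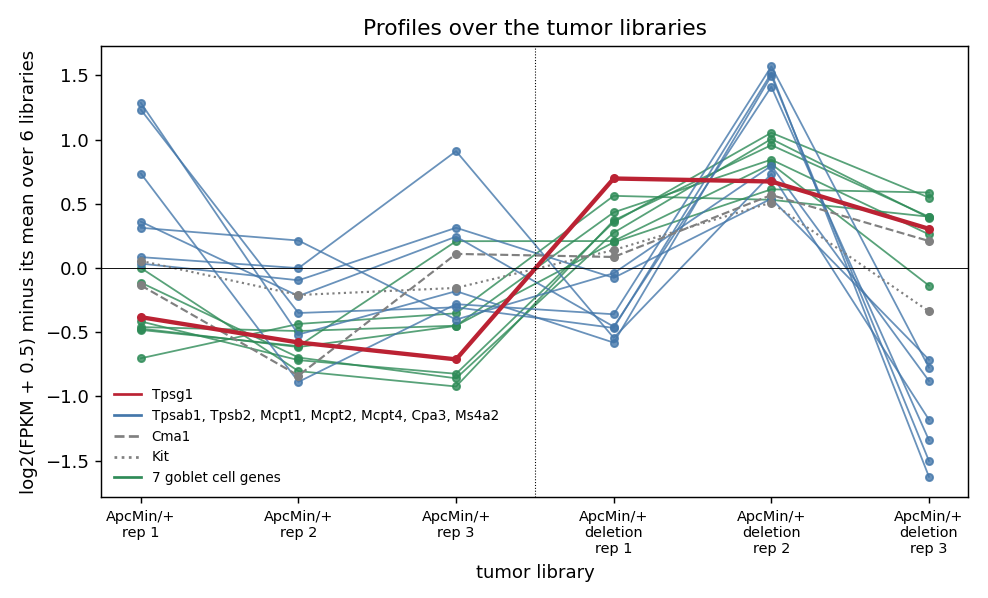
Each line joins the values of 1 gene over the 6 tumor libraries, as log2(FPKM + 0.5) minus its mean, with the dotted line between genotypes. Tpsg1 and 6 of the 7 goblet genes were higher in every deleted library than in any control, while 6 of the 7 blue lines peaked in deleted replicate 2 (Ms4a2 in ApcMin/+ replicate 3) and 6 of 7 were lowest in deleted replicate 3 (Mcpt4 in ApcMin/+ replicate 2). The blue lines are 7 of the mast cell genes other than Tpsg1. Cma1 is not among them, and it peaked in deleted replicate 2 but was lowest in ApcMin/+ replicate 2.

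A further 24 genes were listed for mast cells, and not all of them are particular to these cells. Of the 24, 15 passed the filter in tumors. In 2 the deleted group was higher without overlap and in 1 lower, beside 11.4% and 10.6% of all tested genes. The median log2 difference of the 15 was -0.04. Over the deleted libraries the highest value of these 15 genes was between 1.08 times the lowest, for Gata2, and 7.29 times, for Fcer1a, the alpha chain of the IgE receptor. Over the 10 members it was between 1.33 times, for Tpsg1, and 19.0 times, for Ms4a2. Hdc, which makes histamine, was at 3.71, 4.85 and 14.2 FPKM in ApcMin/+ tumors and at 3.24, 2.25 and 2.31 FPKM in Ctnnb1Δi.enh;ApcMin/+ tumors, without overlap. Il1rl1, the receptor of interleukin 33, was lowest in deleted replicate 2 and highest in deleted replicate 3, the reverse of Cpa3. It was at 20.4, 27.9 and 29.6 FPKM and at 30.3, 18.6 and 55.0 FPKM, and overlapped. Cd63, a granule and lysosome membrane protein of many cells, was at 65.7, 70.3 and 67.9 FPKM and at 85.2, 82.8 and 89.5 FPKM, and did not. Basophil proteases were close to 0, with Mcpt8 at no more than 0.187 FPKM and Prss34 at no more than 0.205 FPKM in any tumor. Neutrophil markers, which share Hdc with mast cells, summed to 237, 525 and 363 FPKM in ApcMin/+ and to 253, 137 and 262 FPKM in the deleted group; S100a9 was the most abundant, Elane was at 0, and of 6 tested markers 3 were lower without overlap and 1 higher, beside 10.6% and 11.4% of all tested genes. Their part in the level of Hdc was not tested.

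In crypts, which the choice of the list did not use, the picture of levels was different. Tpsg1 was the most abundant of the 10 genes in these libraries, at 18.7, 27.6 and 28.4 FPKM in wild-type crypts and at 16.6, 15.4 and 25.2 FPKM in Ctnnb1Δi.enh crypts. The defining genes of connective tissue mast cells were at or near 0 there. Tpsab1 and Cma1 had no fragment in any of the 6 libraries, which allows at most 0.0855 to 0.102 FPKM for Tpsab1 and 0.164 to 0.196 FPKM for Cma1 (3 fragments per library, counting error only). Housekeeping genes read very differently in these libraries: the actin gene Actb was at 849 to 1295 FPKM, but Gapdh, a glycolytic enzyme gene with many pseudogene copies, was at only 1.83 to 5.22 FPKM. How reads with several matches were counted is not stated, so these limits apply to counted fragments and not to transcripts present. Tpsb2 had 0 to 3 fragments, Mcpt4 0 to 4, Ms4a2 1 to 10 and Cpa3 4 to 17 fragments per library. Ptprc was at 4.52 FPKM or more in the wild-type libraries and at 3.42, 3.74 and 4.38 FPKM in Ctnnb1Δi.enh crypts (log2 fold change -0.27, SE 0.13, limma adjusted p = 0.860), without overlap. The goblet list summed to 5167, 7925 and 7992 FPKM in wild-type and to 4471, 5420 and 7365 FPKM in Ctnnb1Δi.enh crypts, led by Tff3.

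The mucosal chymases and Kit remained measurable in crypts. Mcpt1 was at 16.8, 5.03 and 12.1 FPKM in wild-type crypts and at 16.5, 11.8 and 20.5 FPKM in Ctnnb1Δi.enh crypts. Mcpt2 was at 5.66, 1.66 and 5.47 FPKM and at 5.56, 4.28 and 7.85 FPKM, with a ratio of Mcpt1 to Mcpt2 between 2.22 and 3.02. Kit was at 6.68, 11.5 and 7.65 FPKM and at 6.17, 4.81 and 8.79 FPKM. For all 3 genes the groups overlapped, and wild-type replicate 2 was the lowest of the 6 libraries for both chymases and the highest for Kit. In the order of mean levels Tpsg1 and Mcpt1 came first and second, followed by Kit and Mcpt2, and each pair of neighbours overlapped in its range over libraries; Cpa3, at 0.172 to 0.688 FPKM, lay below all of them.

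**Figure D3:**
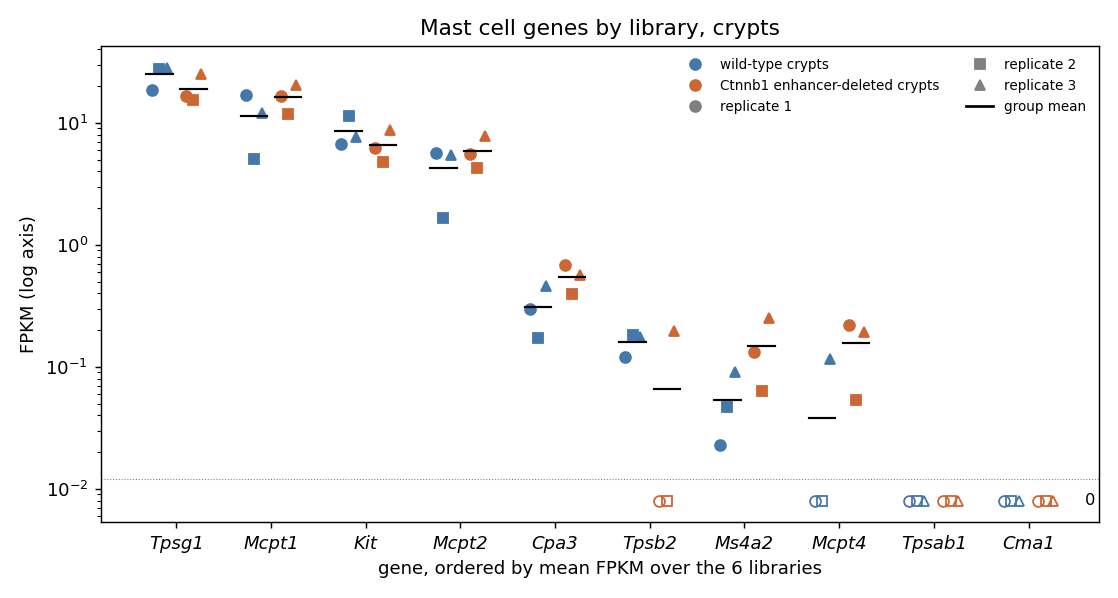
FPKM of each gene in each crypt library on a log axis, drawn as for tumors, with open symbols below the dotted line for libraries at 0. Tpsg1, Mcpt1, Kit and Mcpt2 lay between 1.66 and 28.4 FPKM, and Tpsab1 and Cma1 were at 0 in all 6 libraries.

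These 4 genes passed the filter in crypts and 6 did not. None of the 4 had groups that did not overlap, beside 6.79% of 14176 tested genes with the deleted group higher and 5.15% lower, and none reached an unadjusted limma p under 0.05, which 5.85% did. With the replicate number as a block, Mcpt1 was just under 0.05 before adjustment (limma adjusted p = 0.950). Tpsg1 was lower in Ctnnb1Δi.enh crypts by a log2 fold change of -0.39 (SE 0.24, limma, Benjamini-Hochberg adjusted p = 0.893), and an exact two-sided permutation test gave p = 0.2, where 3 against 3 libraries cannot go below 0.1. Kit had a log2 fold change of -0.36 (SE 0.26, limma adjusted p = 0.896, exact p = 0.4). Mcpt1 had one of 0.62 (SE 0.42, limma adjusted p = 0.896, exact p = 0.5) and Mcpt2 of 0.53 (SE 0.43, limma adjusted p = 0.901, exact p = 0.5). Single libraries moved these values both ways. Without wild-type replicate 2, Mcpt1 stood at 0.15, Mcpt2 at 0.04 and Kit at -0.15, and without Ctnnb1Δi.enh replicate 2, Tpsg1 stood at -0.26 and Kit at -0.17. Without wild-type replicate 1, Mcpt1 stood at 0.97 (limma adjusted p = 0.523) and Tpsg1 at -0.58 (limma adjusted p = 0.519). Without Ctnnb1Δi.enh replicate 3, Tpsg1 stood at -0.60 (limma adjusted p = 0.914), Kit at -0.58 and Mcpt2 at 0.32. These 3 values with a p were under 0.05 before adjustment. With all 6 libraries, the groups of each of these 4 genes overlapped, and the lowest limma adjusted p was 0.893, for Tpsg1. Without wild-type replicates 1 and 2, the libraries with stomach transcripts, limma gave -0.60 for Tpsg1, -0.24 for Kit, 0.37 for Mcpt1 and 0.06 for Mcpt2, with the remaining wild-type library assumed to vary like the others; this setting was added after the data were seen.

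The direction of Tpsg1 differed between tissues, at 1.12 in tumors and -0.39 in crypts, but the crypt groups overlapped. The difference between tissues was not tested, as the tumor value had chosen the list. In crypts no gene of 14176 had a limma adjusted p under 0.05 (829 at an unadjusted p under 0.05, and none adjusted by voom on recovered fragments), and in tumors none of 16743 (2421 unadjusted, none adjusted by voom).

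**Figure D4:**
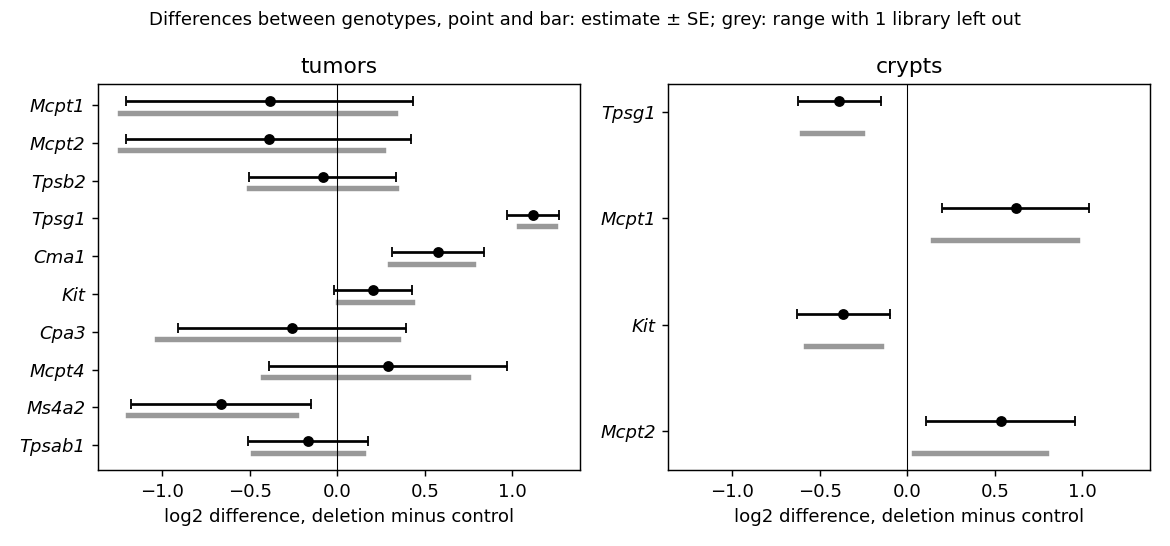
Log2 differences between genotypes for the 10 genes in tumors and the 4 tested genes in crypts, with points and black bars for the estimate and its SE (n = 3 per group) and grey bars for the range when 1 library was left out. Tpsg1 lay at 1.12 in tumors and at -0.39 in crypts. In tumors the grey bars of Mcpt1, Mcpt2, Mcpt4, Cpa3, Tpsb2 and Tpsab1 crossed 0, and so did the black bars of these genes and of Kit.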

How the data were processed

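Bulk RNA was measured in 12 libraries of mouse small intestinal crypts and colon tumors, 3 per group. The FPKM values are as the authors deposited them; per the labels, the tools were cutadapt, HISAT2 (mm10), Cufflinks 2.2.1 and DESeq2, whereas the study's methods name in-house trimming scripts and featureCounts and neither cutadapt nor Cufflinks for these libraries. Which tool made the FPKM, and whether strand was used, is not given. Fragments were recovered from FPKM times length, of which nearly all values above 0 lay on whole steps per library (tolerance 0.01 of a step). Each tissue was tested separately with limma 3.58.1 (R 4.3.3, variance trend) on log2(FPKM + 0.5), for genes with a mean of at least 0.5 FPKM, with Benjamini-Hochberg adjustment, after a test on simulated data. Nothing in the sources shows that replicates were paired. The members, gene lists and tests were chosen with earlier results of these data known. All 10 members are named. Of other lists, mostly up to 4 genes each are named by abundance or smallest p. Markers at or near 0, and Fcer1a as the end of a range, are named besides.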

Additional observations from a re-analysis of the deposited data

How the results depend on the processing

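With 1 library left out in turn, the count of genes with a limma adjusted p under 0.05 ran from 0 to 3 in crypts (3 without wild-type replicate 3) and was 0 in all 6 cases in tumors. Without a variance trend it was 1 in tumors; it was 0 under every other alternative, including the replicate block (0 in crypts and 0 in tumors). The cause was not tested. Same-numbered libraries did not deviate together, with correlations of -0.05, -0.12 and 0.04 in crypts and 0.05, -0.09 and 0.05 in tumors, so the numbers were not taken as pairs. Among genes at an unadjusted p under 0.05, rescaling without the 50 highest genes changed the split from 494 higher and 335 lower to 313 and 475 in crypts, and from 1417 and 1004 to 1072 and 1354 in tumors; it turned no member's direction. The 4 crypt fold changes kept their sign throughout, with a lowest limma adjusted p of 0.421, for Tpsg1 without wild-type replicates 1 and 2. In tumors, leaving out a library turned the sign of Tpsab1, Tpsb2, Mcpt1, Mcpt2, Mcpt4 and Cpa3. Tpsab1 moved from -0.17 to -0.44 by voom, to -0.35 with a pseudocount of 0.1 and to -0.10 with a pseudocount of 1. Cpa3 moved from -0.26 to -0.43, -0.40 and -0.16 under the same settings. Cpa3, with 4 to 17 fragments per crypt library, did not pass the filter in crypts and was not tested there.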

Other observations

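Genes of the IgE receptor and the signaling below it were measured in both tissues. Of 20 such genes, 19 passed the filter in each. In tumors 15 of the 19 had a log2 difference above 0, with a median log2 difference of 0.09 beside 0.01 over all tested genes, and 3 were higher and 1 lower without overlap, beside 11.4% and 10.6% of all tested genes. Stim1, the calcium sensor of the endoplasmic reticulum, was at 5.40, 4.66 and 5.27 FPKM in ApcMin/+ tumors and at 6.11, 8.91 and 6.70 FPKM in Ctnnb1Δi.enh;ApcMin/+ tumors, without overlap. In crypts 14 of the 19 had a log2 difference below 0, with a median log2 difference of -0.16 beside 0.01 over all tested genes, and 1 was higher and 1 lower without overlap, beside 6.79% and 5.15% of all tested genes. Orai1, the calcium channel that Stim1 opens, was at 9.29, 11.2 and 9.34 FPKM in wild-type and at 14.7, 11.4 and 13.7 FPKM in Ctnnb1Δi.enh crypts (log2 fold change 0.40, SE 0.14, limma adjusted p = 0.806). Pik3cd, a catalytic subunit of phosphoinositide kinase, was at 4.81, 4.37 and 6.56 FPKM in wild-type and at 3.90, 3.59 and 3.48 FPKM in Ctnnb1Δi.enh crypts (log2 fold change -0.45, SE 0.16, limma adjusted p = 0.811). These genes are active in many cell types.

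Of 25 genes for mast cell growth and recruitment, 18 passed the filter in tumors, with a median log2 difference of 0.04, and Il3, Il9 and Il25 were at 0 in all 6 tumor libraries. Kitl, the ligand of Kit, was at 31.7, 35.1 and 42.3 FPKM in ApcMin/+ tumors and at 25.6, 37.9 and 27.1 FPKM in the deleted group, and the groups overlapped. In crypts 9 passed, and 5 genes, Il3 and Il9 among them, were at 0 in all 6 libraries.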
